A study of Mus musculus with 13 samples.

Results

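In irradiated mouse oocytes, 8 of the 49585 genes in the libraries were followed: the sestrins *Sesn1*, *Sesn2* and *Sesn3*, and the stress and metabolism genes *Ddit4*, *Tigar*, *Prkab1*, *Sco2* and *Gls2*. They are stress and metabolism genes listed as regulated by p53. The rule that lists them uses no measured value, but they were chosen with earlier results of these data known. The paper already names *Sesn2* as expressed after irradiation. All 8 passed the filter on low counts in every comparison. Of the 8, *Sesn2* alone passed the test with edgeR. The level of *Sesn2* rose about 5.58-fold at 0.5 Gy between the libraries of 0 and 1 h and those of 2.5, 4 and 6 h. At 0.2 Gy it was 5.68-fold higher at 4 and 6 h than at 0 and 1 h, a difference that did not pass the test by itself.

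The RNA came from oocytes of female CD-1 mice on postnatal day 5. Their ovaries were cultured overnight and exposed to a Caesium-137 source, and oocytes were separated by trypsin and centrifugation, with 4 ovaries used per time point. At 0.5 Gy there were 2 libraries each at 0 h, which is before irradiation, at 1 h and at 4 h, and 1 library each at 2.5 h and 6 h. The series at 0.2 Gy had 1 library at each of the same 5 time points. The labels give 3 generations, the first and second at 0.5 Gy and the third at 0.2 Gy, so dose and generation cannot be told apart. Nothing in the labels says that the duplicates came from separate animals, and p-values measure the spread between these libraries only.

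The libraries held 15709549 to 30430104 estimated reads, and replicate 2 of 0 h at 0.5 Gy was the smallest. All 14 oocyte markers had more than 3 reads in every library, with a summed level of 4882 to 7348 CPM (read counts scaled to the size of each library, with TMM factors). All 10 granulosa cell markers, all 9 markers of stroma and theca, all 4 of endothelium and all 9 of blood did so too, so the libraries were not free of RNA from other ovarian cells. In bulk RNA, fewer cells of a type and less RNA per cell cannot be told apart.

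p53 and its relatives switch on genes that adjust growth and metabolism to stress, beside those that stop the cell cycle or start apoptosis. In oocytes of primordial follicles the family member at work after DNA damage is TAp63α, which binds DNA sites like those of p53. The sestrins and the product of *Ddit4* restrain the growth kinase complex mTORC1, the sestrins by binding the GATOR2 complex, and TSC proteins and mTORC1 also govern the awakening of primordial follicles. *Tigar*, *Gls2*, *Sco2* and *Prkab1* act in glucose, glutamine and respiratory metabolism and in energy sensing.

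All 8 are protein-coding genes. On GRCm38, *Sesn1* is at chr10:41809935-41908424 (plus strand), *Sesn2* at chr4:132492032-132510501 (minus) and *Sesn3* at chr9:14275067-14333101 (plus). *Ddit4* is at chr10:59949669-59951834 (minus) and *Prkab1* at chr5:116013586-116024508 (minus). *Tigar* is at chr6:127085116-127109557 (minus), *Gls2* at chr10:128194457-128210004 (plus) and *Sco2* at chr15:89371637-89373846 (minus).

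*Sesn2* encodes a sestrin that also senses leucine, and it has a single transcript in these files. Before irradiation with 0.5 Gy its level was 2.46 and 2.91 CPM in the duplicates, against 4.28 and 5.23 CPM 1 h later. The single library of 2.5 h held 21.7 CPM, those of 4 h held 9.75 and 25.6 CPM, and that of 6 h held 27.2 CPM. In the series of 0.2 Gy the early libraries held 1.75 CPM (0 h) and 2.28 CPM (1 h), and the late ones 8.30 CPM (2.5 h), 14.3 CPM (4 h) and 9.06 CPM (6 h). Every library from 2.5 h on lay above every library of 0 and 1 h, at either dose. Such a separation of all 7 late from all 6 early libraries, upward, was seen in 0.21% of the 28162 genes tested at both doses, and a downward one, which none of the 8 showed, in 0.0852%. At 0.2 Gy alone, where 2 libraries stand against 3, 14.8% of genes separated upward and 18.3% downward. The lowest late value at 0.5 Gy was replicate 1 of 4 h, which stood well under replicate 2 of the same time point. In the labels it is the only late library of the first generation.

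**Figure D1:**
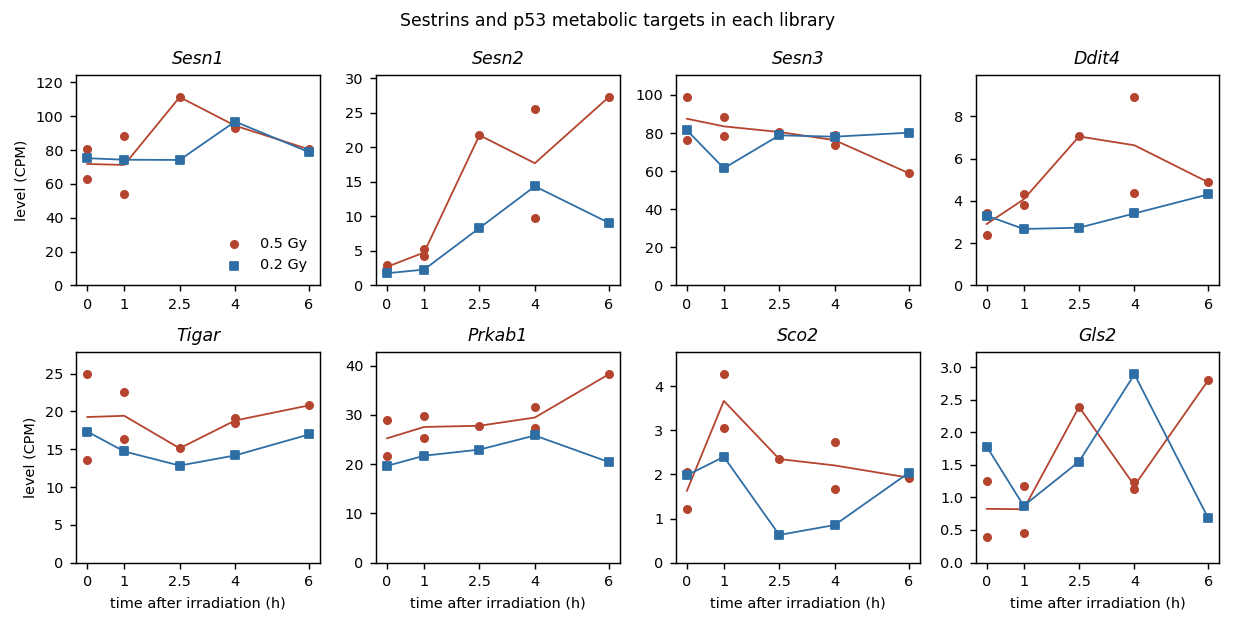
Level of each of the 8 genes in CPM, on axes that start at 0, against the time after irradiation in hours. Points are libraries, circles for 0.5 Gy and squares for 0.2 Gy, and lines join the means of the time points. *Sesn2* leaves its early range of 1.75 to 5.23 CPM for 8.30 to 27.2 CPM from 2.5 h on, while the early and late points of the other genes overlap over the 13 libraries.

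The reads behind these values at 0.5 Gy were 61 and 44 before irradiation and 105 and 138 an hour after it. The late libraries held 573 reads (2.5 h), 251 and 663 reads (4 h) and 720 reads (6 h). At 0.2 Gy *Sesn2* had 61 and 76 reads in the early libraries and 225, 387 and 227 in the late ones. No stretch of 30 bases in its transcript occurs in a transcript of another gene, so its reads were not shared. The same-strand transcript *Gm12981*, which overlaps *Sesn2*, held 0 to 14 reads per library.

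At 0.5 Gy, *Sesn2* was higher in the late libraries than in the early ones by 2.48 on the log2 scale (SE 0.36, adjusted p = 0.0247, edgeR's quasi-likelihood test with Benjamini-Hochberg adjustment). The 95% interval ran from 3.23-fold to 9.63-fold. In this comparison 29 of 22588 genes were called higher, which is 0.128%, and 0 were called lower, which is 0.0%. The call required both an absolute log2 fold change over 1 and an adjusted p under 0.05. *Sesn2* was 1 of 8 genes of the list called. An unadjusted p under 0.05 was reached by 3 of the 8 (*Sesn2*, *Ddit4* and *Gls2*) and by 2046 of the 22588 genes. It passed in 2 of the 8 fits that left out 1 library, with adjusted p from 0.00799 to 0.114 and log2 fold changes from 2.33 to 2.73. The 6 libraries whose removal ended the call were both of 0 h, replicate 1 of 1 h, the 2.5 h library, replicate 2 of 4 h and the 6 h library.

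Across both doses, with dose as a term and 4 and 6 h set against 0 and 1 h, the rise of *Sesn2* was 2.48 (SE 0.30, adjusted p = 0.00274 with edgeR). This comparison called 37 of 28162 genes higher (0.131%) and 1 lower (0.00355%). *Sesn2* and *Ddit4*, 2 of the 8, had an unadjusted p under 0.05, as did 2022 of all genes. *Sesn2* was called in all 11 fits without 1 library here, and also without both 0 h libraries of 0.5 Gy (2.31, adjusted p = 0.0356). On log2(TPM + 0.5), a scale on which changes of low genes come out smaller, limma gave 1.40 with an adjusted p of 0.0686. Libraries of different time points on a side are not replicates of a condition, and their spread includes change over time.

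At 0.2 Gy alone the difference of *Sesn2* between 4 and 6 h and 0 and 1 h was 2.51 (SE 0.53, adjusted p = 0.224 with edgeR). It was not called there, so 0 of 8 genes were, where 10 of 28162 genes were called higher (0.0355%) and 3 lower (0.0107%), 0.0462% in all. At an unadjusted p under 0.05 *Sesn2* was 1 of 8, beside 2054 of all genes, and limma called 0 of 8. The 95% interval ran from 2.58-fold to 12.5-fold. DESeq2 called it, with 2.56 and an adjusted p of 0.00034. The difference between the doses, 0.5 Gy minus 0.2 Gy, was -0.04 (SE 0.61, adjusted p = 0.992 with edgeR), and its interval allowed a change at 0.5 Gy between 0.389 and 2.44 times that at 0.2 Gy. For this difference 2 genes were called higher (0.0071%) and 7 lower (0.0249%), 0.032% in all, and 0 of 8 genes of the list were called by edgeR, DESeq2 or limma, with 0 at an unadjusted p under 0.05, beside 2291 of all genes. Differences in the size of the *Sesn2* rise between doses within that range were not detectable with these libraries. The 2.5 h libraries, which did not enter this test, held 21.7 CPM at 0.5 Gy and 8.30 CPM at 0.2 Gy.

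Set against 0 h of 0.5 Gy, *Sesn2* differed on the log2 scale by 0.81 for 1 h (SE 0.50), 3.01 for 2.5 h (SE 0.58), 2.71 for 4 h (SE 0.52) and 3.36 for 6 h (SE 0.58). The value for 4 h was 3.24 without replicate 1 of that time and 1.85 without replicate 2. Both 1 h values lay above both 0 h values, but the interval of the 1 h difference ran from 0.802-fold to 3.85-fold. None of the 4 differences was called by edgeR, with adjusted p of 1.00, 0.502, 0.503 and 0.368, and neither was any other of the 28468 genes tested (0.0%). An unadjusted p under 0.05 was reached by 1133, 1590, 1658 and 1691 genes in the order of the times. *Sesn2* was the only one of the 8 among them, at 2.5, 4 and 6 h. DESeq2 called 20, 85, 125 and 137 genes at these times and *Sesn2* at 2.5, 4 and 6 h, with adjusted p of 0.000399, 0.000205 and 3.57e-05.

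**Figure D2:**
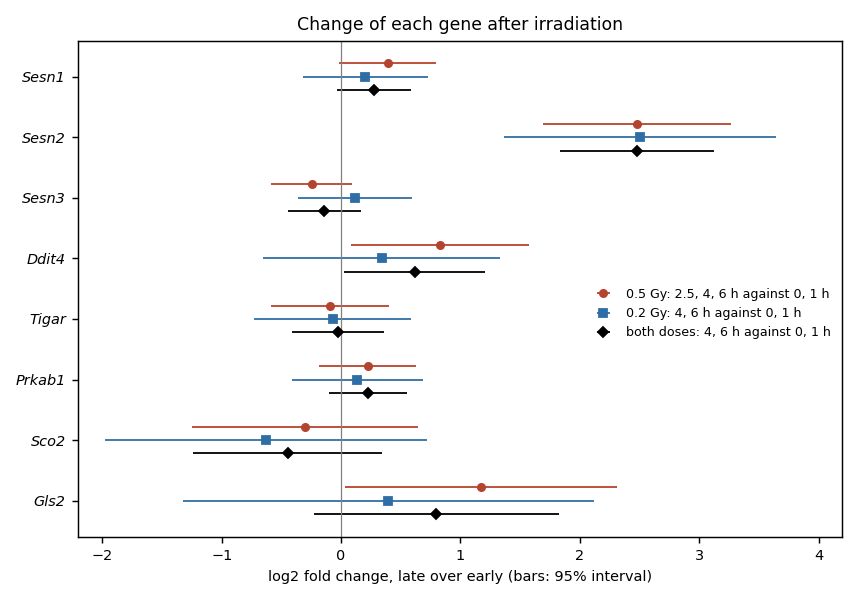
Log2 fold change of each gene, late over early, with its 95% interval from edgeR, for 0.5 Gy (circles), 0.2 Gy (squares) and both doses (diamonds). The intervals of *Sesn2* lie between 1.37 and 3.65, and those of the other 7 genes lie lower or reach across 0, apart from *Ddit4* and *Gls2* at 0.5 Gy and *Ddit4* at both doses, which start just above 0.

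The other sestrins had more reads than *Sesn2* in every library, and neither passed the test. *Sesn1*, a p53 target in many tissues, was at 63.0 and 80.5 CPM at 0 h of 0.5 Gy and at 54.3 and 88.1 CPM at 1 h. Its level was 111 CPM at 2.5 h, 95.6 and 93.2 CPM at 4 h and 80.5 CPM at 6 h. At 0.2 Gy it was between 74.2 and 96.8 CPM. The highest value was at 2.5 h of 0.5 Gy, and the ranges of 54.3 to 88.1 CPM early and 80.5 to 111 CPM late overlapped at that dose. The difference was 0.39 at 0.5 Gy (SE 0.19, adjusted p = 0.563) and 0.27 at both doses (SE 0.14, adjusted p = 0.747, edgeR).

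*Sesn3*, the sestrin best known as a target of FOXO factors, was at 98.9 and 76.2 CPM at 0 h of 0.5 Gy, at 78.7 and 88.4 CPM at 1 h and at 80.6 CPM at 2.5 h. It was at 78.8 and 73.8 CPM at 4 h and 59.0 CPM at 6 h, the lowest value of the 13 libraries. The 5 libraries of 0.2 Gy held 61.5 to 81.5 CPM. The log2 difference late against early was -0.25 at 0.5 Gy (SE 0.16, adjusted p = 0.675) and 0.12 at 0.2 Gy (SE 0.22, adjusted p = 0.926, edgeR), so its sign differed between the doses and neither passed.

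The order of the sestrins per length of transcript was compared on the TPM of protein-coding transcripts. *Sesn1* had a median of 9.61 TPM over the 13 libraries (5.97 to 13.7), *Sesn3* 2.69 TPM (2.09 to 4.53) and *Sesn2* 0.97 TPM (0.209 to 2.96). At 0 h *Sesn2* was at most 0.42 TPM, and *Sesn3* was at least 2.42 TPM. At 6 h of 0.5 Gy *Sesn2*, with 2.96 TPM, stood above *Sesn3*, with 2.09 TPM. On the log2 CPM scale, which is not per length, the difference of *Sesn2* minus *Sesn3* within a library ranged from -5.48 to -4.06 early and from -3.24 to -1.11 late, and that of *Sesn2* minus *Sesn1* from -5.36 to -3.64 early and from -3.28 to -1.56 late. The same difference to *Ddit4*, *Tigar*, *Prkab1* and *Sco2* also had early and late ranges that did not overlap, and that to *Gls2* had ranges that did. These differences between genes were not tested, because *Sesn2* was singled out after its change was known. *Sesn2* is part of each of them, so they are not separate observations.

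The sequences before the starts of the 3 sestrin genes are shown because only 1 of these genes passed the test. Whether the sequences bear on that was not tested. They are from RefSeq on GRCm38.p6, each on the strand of its gene. They lie before a RefSeq start and hold no annotated exon of their gene. *Sesn2* is from chr4:132510502-132510706 (minus strand, 205 bases), *Sesn3* from chr9:14276051-14276300 (plus strand, 250 bases) and *Sesn1* from chr10:41887189-41887438 (plus strand, 250 bases), which precedes the shorter coding transcript. The stretches of *Sesn3* and *Sesn1* lie in an intron of transcripts that start further upstream. Capitals mark a match to the p53 half-site consensus and CCAAT boxes, which read ATTGG where they are on the other strand.
Sesn2: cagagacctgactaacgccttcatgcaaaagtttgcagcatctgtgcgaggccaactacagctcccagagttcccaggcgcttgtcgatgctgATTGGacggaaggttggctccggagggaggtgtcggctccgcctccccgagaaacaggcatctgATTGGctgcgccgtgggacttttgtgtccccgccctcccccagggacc
Sesn3: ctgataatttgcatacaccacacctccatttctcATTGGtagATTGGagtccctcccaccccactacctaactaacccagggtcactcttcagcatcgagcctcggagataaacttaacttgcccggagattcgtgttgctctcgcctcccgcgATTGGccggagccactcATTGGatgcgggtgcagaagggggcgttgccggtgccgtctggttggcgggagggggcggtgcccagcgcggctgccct
Sesn1: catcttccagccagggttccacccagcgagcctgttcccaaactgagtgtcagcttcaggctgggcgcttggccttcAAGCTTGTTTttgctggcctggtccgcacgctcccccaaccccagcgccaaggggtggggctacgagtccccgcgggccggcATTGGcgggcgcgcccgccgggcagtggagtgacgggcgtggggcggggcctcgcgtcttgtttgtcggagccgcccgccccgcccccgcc
The p53 half-site consensus was in 1 of 8 promoters of the list (7 genes, *Sesn1* with 2), that of *Sesn1* printed above, against 8.36% of 32851 RefSeq promoters of the same length (250 bases before and 50 after the start, both strands, overlaps allowed). *Sesn2* has 2 CCAAT boxes in the printed stretch, *Sesn3* 4 and *Sesn1* 1, and 6 of the 8 promoters of the list, both of *Sesn1* among them, hold at least 1, against 37.4% of all. TGATGNAA, the core of the element bound by stress factors of the ATF4 and CHOP kind, was in 0 of the 8, against 3.97% of all. Of the 6 reference p53 targets, *Cdkn1a*, *Mdm2* and *Ccng1* had the half-site consensus in this window. A match describes letters only, and a missing one says nothing of sites elsewhere in a gene. *Gls2* had no entry.

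*Ddit4*, also called REDD1, activates the TSC complex and was a low gene with 36 to 231 reads per library. At 0.5 Gy it was at 3.43 and 2.38 CPM at 0 h, 3.83 and 4.32 CPM at 1 h and 7.05 CPM at 2.5 h. It was at 4.35 and 8.92 CPM at 4 h and 4.88 CPM at 6 h. All 4 late libraries lay above all 4 early ones, though 4.35 against 4.32 CPM is nearly a tie, and 3.18% of the 22588 genes tested separated upward in this way and 2.04% downward. At 0.2 Gy the early values were 3.30 and 2.67 CPM and the late ones 2.73, 3.41 and 4.31 CPM, which overlapped. The log2 difference was 0.83 at 0.5 Gy (SE 0.34, adjusted p = 0.50) and 0.62 at both doses (SE 0.27, adjusted p = 0.676, edgeR), and neither passed the test.

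*Prkab1*, the β1 subunit of the energy sensor AMPK, was at 21.6 to 29.7 CPM in the early and 27.4 to 38.2 CPM in the late libraries of 0.5 Gy. The highest value was at 6 h. At 0.2 Gy it was at 19.6 to 25.8 CPM throughout. The ranges overlapped, and the difference at both doses was 0.23 (SE 0.15, adjusted p = 0.812, edgeR).

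*Tigar* encodes a phosphatase that lowers fructose 2,6-bisphosphate and so turns glucose toward the pentose phosphate pathway. Its level was 13.6 to 24.9 CPM early and 15.1 to 20.8 CPM late at 0.5 Gy, and 12.8 to 17.3 CPM at 0.2 Gy. The early range, set by the duplicates of 0 h, enclosed the late one at 0.5 Gy. The difference at both doses was -0.03 (SE 0.18, adjusted p = 0.989, edgeR), with an interval from 0.751-fold to 1.28-fold. About as many reads were assigned to *Tigar-202*, a transcript annotated for nonsense-mediated decay (39.7% to 56.9% of the reads of the gene), as to the coding transcript.

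*Gls2*, the mitochondrial glutaminase of the liver type, had 6 to 78 reads per library. Its level at 0.5 Gy was 1.25 and 0.40 CPM at 0 h, 1.18 and 0.45 CPM at 1 h, 2.39 CPM at 2.5 h, 1.13 and 1.24 CPM at 4 h and 2.80 CPM at 6 h. At 0.2 Gy it was 1.78, 0.87, 1.55, 2.89 and 0.68 CPM from 0 to 6 h. The highest values stood at different times at the 2 doses and the ranges overlapped. The log2 difference was 1.17 at 0.5 Gy (SE 0.52, adjusted p = 0.537) and 0.80 at both doses (SE 0.48, adjusted p = 0.783, edgeR), and at this depth no change was detectable. Over all libraries 46.9% of its reads were assigned to transcripts with a retained intron and 22.8% to protein-coding ones. The full-length coding transcript was listed at 0 reads in 12 of 13 libraries.

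*Sco2*, which delivers copper to cytochrome c oxidase, was at 1.21 to 4.28 CPM early and 1.67 to 2.74 CPM late at 0.5 Gy, and at 0.63 to 2.40 CPM at 0.2 Gy. The difference at both doses was -0.45 (SE 0.37, adjusted p = 0.855, edgeR). Its value is uncertain, because 89.8% of the 30-base stretches of its transcripts also occur in transcripts of *Tymp*, on the same strand, or *Ncaph2*, on the other. *Ncaph2* was at 68.0 to 141 CPM, and how salmon was told to use strand is not given in the sources used here.

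**Figure D3:**
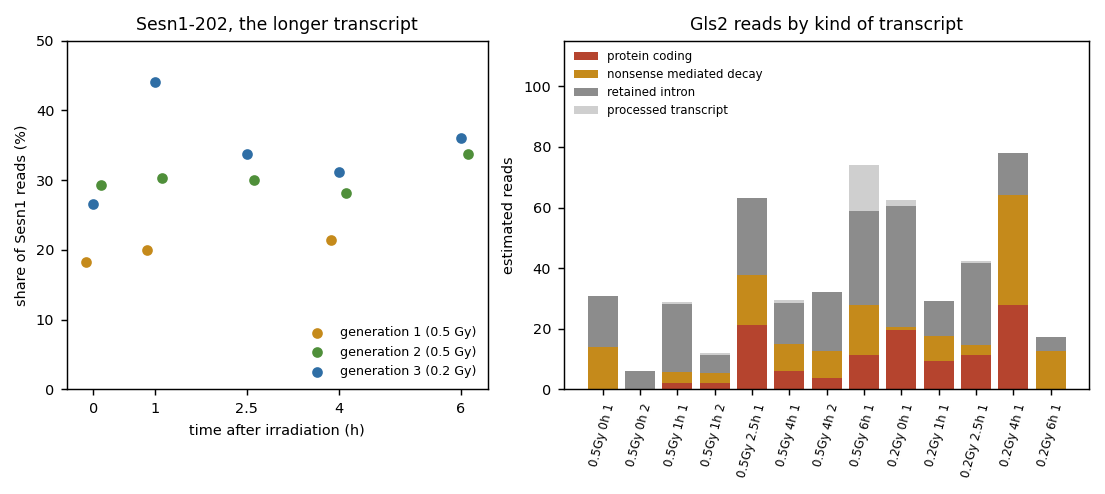
Left, share of the reads of *Sesn1* assigned to its longer transcript *Sesn1-202* in percent against time in hours, 1 point per library, coloured by the generation of the labels. Right, estimated reads of *Gls2* in each library, stacked by annotated kind of transcript. The *Sesn1-202* share is 18.3% to 21.4% in the first generation and 26.6% or more in the other libraries, and *Gls2* has at most 78 reads.

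The assignment of *Sesn1* reads to its transcripts differed by the generation in the labels. *Sesn1-202* took 18.3% to 21.4% of the reads in the 3 libraries of the first generation, 28.2% to 33.7% in the 5 of the second and 26.6% to 44.0% in the 5 of the third. For the duplicates of 1 h and 4 h, the study's sequencing summary lists read totals under the other generation than the labels do. Read that way, the first generation would hold 18.3%, 30.3% and 28.2%, and the generations would overlap. These are estimates from reads of 30 bases. *Sesn3* reads fell mostly on *Sesn3-204*, with 81.4% to 98.0%.

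The genes of the list were then set beside 6 reference targets of p53, picked with earlier results of these data known. The paper names all 6 among genes raised after irradiation in these libraries. Their rise is therefore no separate result, and they do not stand for p53 targets at large. *Cdkn1a*, a cell cycle inhibitor, rose from 3.72 to 11.7 CPM early to 45.7 to 95.9 CPM late at 0.5 Gy. *Mdm2*, the ubiquitin ligase of p53, rose from 53.3 to 77.1 CPM to 234 to 593 CPM. Of the 6 references 5 were called at 0.5 Gy and at both doses by edgeR, all higher, against 6 by DESeq2 and 3 by limma. At 0.2 Gy 0 of 6 were called by edgeR and limma and 3 by DESeq2. All 6 had an unadjusted p under 0.05 there, beside 2054 of 28162 genes. The reference that edgeR did not call at 0.5 Gy or at both doses was *Zmat3*, named after its value was seen. Its difference at 0.5 Gy was 1.20 (adjusted p = 0.135, edgeR). The median log2 fold change of the references at both doses was 2.44, that of the 8 genes of the list 0.25, and that of all genes tested -0.03.

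**Figure D4:**
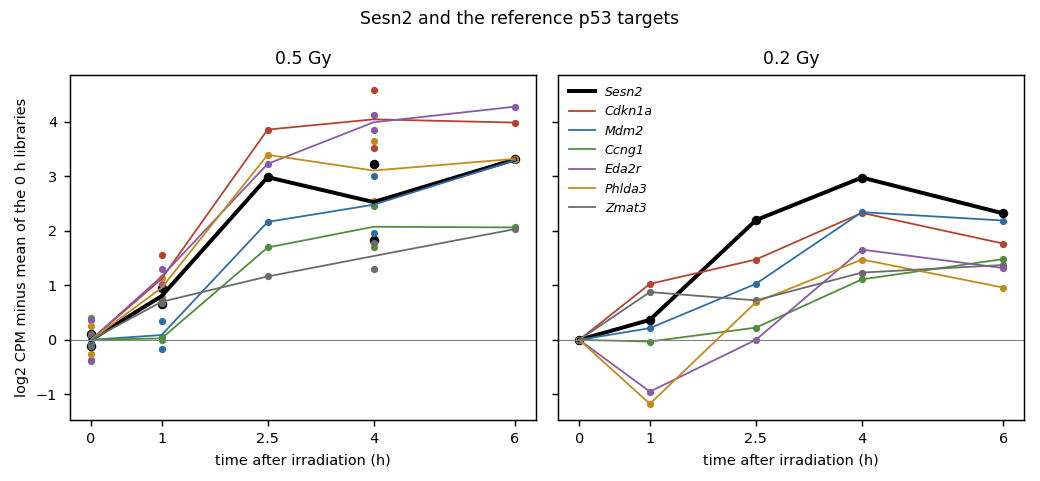
Log2 CPM of *Sesn2* (thick black) and the 6 reference p53 targets, less the 0 h mean at that dose, against time in hours. Points are libraries and lines join the means of the time points. *Sesn2* reaches 3.31 at 6 h of 0.5 Gy and 2.98 at 4 h of 0.2 Gy, where it is the highest of the 7 genes.

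At 0.2 Gy, *Sesn2* had the largest difference of these 7 genes, 2.51 against 2.13 for *Mdm2* and 1.45 for *Cdkn1a*. This set 4 and 6 h against 0 and 1 h, with 2 libraries on each side. At 0.5 Gy, where 2.5 h was also on the late side, it was behind *Cdkn1a* (3.32), *Eda2r* (3.21), *Phlda3* (2.72) and *Mdm2* (2.63). The times thus differ between these 2 orders. The difference between doses, without 2.5 h, was -0.04 for *Sesn2* and 0.55 to 1.92 for the references. Of the references 0 of 6 were called by edgeR, DESeq2 or limma, and 2 had an unadjusted p under 0.05, beside 2291 of 28162 genes. The orders at the doses were not tested against each other. Over the 13 libraries, the protein-coding genes whose log2 CPM was most like that of *Sesn2* among 17010 were *Sfn* (r = 0.95), the gene of the cell cycle protein 14-3-3σ, *Mdm2* (r = 0.95) and *Traf3* (r = 0.94), an adaptor of immune receptors. The points share their libraries, and these are descriptions.

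Partners of the 8 proteins were counted next, from lists written with earlier results of these data known. None of the 12 AMPK genes, 26 genes of GATOR and amino acid sensing and 17 genes of TSC and mTORC1 was called by edgeR at 0.5 Gy, at 0.2 Gy or at both doses, where 1 of the 12 was not tested at 0.5 Gy. At both doses 0, 3 and 1 of them had an unadjusted p under 0.05, beside 2022 of 28162 genes, and DESeq2 and limma called 0. Within single doses 2, 3 and 1 had such a p at 0.5 Gy, beside 2046 of 22588 genes. At 0.2 Gy 0, 0 and 2 did, beside 2054 of 28162. At these doses limma called 0, and DESeq2 called only *Tsc2*, at 0.2 Gy. The medians were 0.10, 0.07 and 0.14, against -0.03 over all genes. The largest differences at both doses were -0.42 for *Prkag3* and 0.37 for *Strada* among the AMPK genes and 0.54 for *Nprl3* and 0.51 for *Flcn*, a GATOR1 subunit and the folliculin of the lysosome. In the TSC and mTORC1 list they were 0.43 for *Tsc2* and 0.36 for *Mlst8*.

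*Flcn* had 26.5 to 37.9 CPM early and 37.2 to 78.1 CPM late at 0.5 Gy, ranges that overlapped, and did not pass (0.94, SE 0.23, adjusted p = 0.219, edgeR). At 0.2 Gy it differed by -0.05 (SE 0.31, adjusted p = 0.983).

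Among 17 partners of *Tigar*, *Gls2* and *Sco2* (enzymes of fructose bisphosphate, glutaminase, assembly factors of cytochrome c oxidase, and *Tymp*, the thymidine phosphorylase gene that overlaps *Sco2*), 0 were called by edgeR, DESeq2 or limma at both doses, and 0 had an unadjusted p under 0.05. At single doses 0 were called by these tools, and 3 of 16 tested at 0.5 Gy and 1 of 17 at 0.2 Gy had such a p. Their largest differences were 0.48 for *Tymp*, with at most 29 reads, and -0.35 for *Coa6*. Of 18 other metabolic and redox targets of p53, 1 was called at 0.5 Gy and at both doses by edgeR and by DESeq2, and 0 by limma. At 0.2 Gy DESeq2 called the same gene, and edgeR and limma called 0. At an unadjusted p under 0.05 there were 6 of the 18 at 0.5 Gy, beside 2046 of 22588 genes. At 0.2 Gy there was 1, beside 2054 of 28162, and at both doses 5, beside 2022 of 28162. The called gene was *Trp53inp1*, a stress protein with a part in autophagy. It had 74.5 to 96.1 CPM early and 204 to 250 CPM late at 0.5 Gy (1.42, SE 0.14, adjusted p = 0.0036, edgeR). *Aldh4a1*, of proline metabolism, had the next largest difference, 0.91 at both doses (SE 0.29, adjusted p = 0.497).

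*Sesn2*, *Ddit4* and *Sesn3* also answer to other stress pathways, so 2 further lists were read. In the integrated stress response, 0 of 13 genes were called by edgeR, DESeq2 or limma at both doses. Beside 2022 of 28162 genes, 1 of the 13 had an unadjusted p under 0.05. That gene was *Chac1*, a glutathione-degrading enzyme, with -1.26 (SE 0.43, adjusted p = 0.524) and 0.49 to 3.83 CPM. *Ppp1r15a*, which ends the response, differed by 0.42 (SE 0.20, adjusted p = 0.705). Of 10 targets of glucocorticoids and FOXO factors 0 were called by any of the 3 tools and 0 had an unadjusted p under 0.05, and *Sgk1* and *Irs2* had the largest differences, 0.82 and -0.36. The medians of these lists were 0.02 and 0.03.

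**Figure D5:**
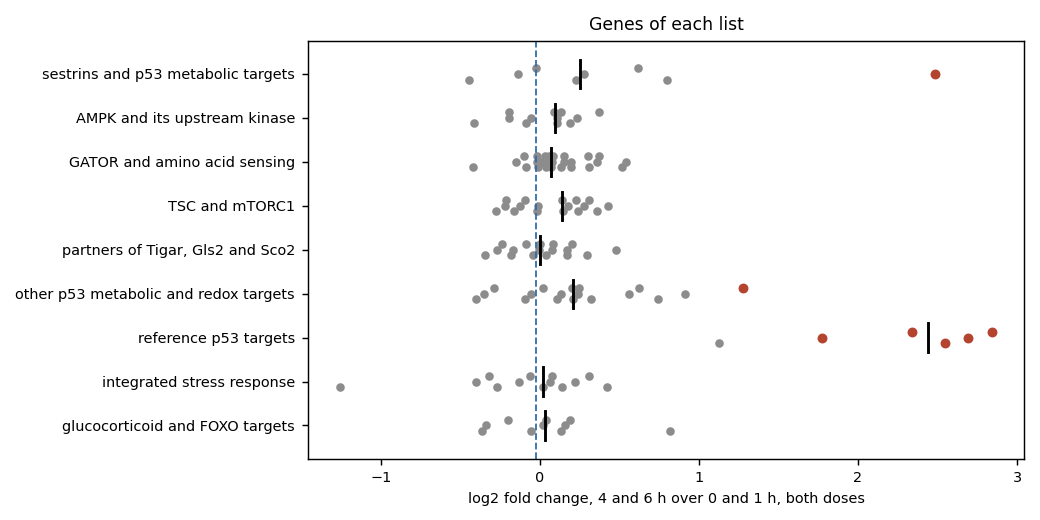
Log2 fold change of every tested gene of each list, 4 and 6 h over 0 and 1 h at both doses. Red points are called genes, grey points are not, black bars are list medians and the dashed line is the median of all genes, -0.03. *Sesn2* at 2.48 is the only called point in its row, and the only other called points are 5 reference targets and *Trp53inp1*.

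Markers of other cell types were read beside the rise of *Sesn2*. The summed granulosa markers were at 1282 to 1942 CPM early and 1395 to 1988 CPM late at 0.5 Gy, and the oocyte markers at 5277 to 6398 and 4897 to 6488 CPM. Markers of stroma and theca were at 2578 to 3691 CPM early and 2353 to 3033 CPM late, and those of blood at 2452 to 3549 and 2732 to 6279 CPM. Those of endothelium were at 83.2 to 128 CPM early and 63.6 to 111 CPM late. The early and late ranges overlapped for each of these lists at 0.5 Gy. At 0.2 Gy they did not overlap for endothelium, with 69.9 to 81.2 CPM early and 82.5 to 95.7 CPM late, higher late like *Sesn2*. With 2 libraries against 3 at that dose, 14.8% of single genes separated upward and 18.3% downward. The marker ranges overlapped there for stroma and theca (1885 to 2779 and 2705 to 3209 CPM), blood (2158 to 2180 and 880 to 4180 CPM), granulosa (1301 to 1857 and 1065 to 2227 CPM) and oocytes (4882 to 6557 and 4921 to 7348 CPM). These are summed levels, and their part in the change of *Sesn2* was not tested.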

How the data were processed

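RNA from oocytes was sequenced in 13 libraries as paired reads of 30 bases. The authors ran salmon against Ensembl mouse transcripts, and the deposited estimated counts and TPM cover 130740 transcripts, with no scaling between libraries. The authors' own comparisons and their merged table were not used.

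Estimated counts were summed per gene (GENCODE annotation of GRCm38) and rounded. Without a gene were 402 transcripts, holding at most 0.495% of a library's reads, and these were dropped. A count of 0 allows 3 reads, for counting error only. Sums were scaled by TMM, filtered with filterByExpr and tested with edgeR 4.0.16 in R 4.3.3, with Benjamini-Hochberg adjustment. Log2 CPM used a prior count of 2. Alternatives were RLE size factors, no filter, DESeq2 1.42.0, limma 3.58.1 on log2(TPM + 0.5), blocks and fits without 1 library. The 8 genes, the lists and the tests were chosen with earlier results of these data known. Genes named were the 8, list genes that were called, the 2 of each list with the largest change at both doses, and the 3 genes most like a called one. A simulation made 200 genes differ by 3 on the log2 scale. For late against early, edgeR found all 200 for 0.5 Gy and for both doses, and 175 for 0.2 Gy. It found 166 for the difference between doses. For single times set against 0 h, where the data gave 0 called genes, it found between 143 and 178. False calls numbered 2 to 12 per comparison. The changed genes were drawn only from genes above a floor on the mean count. Their simulated spread followed the trend over all genes, not the spread of each gene, so these counts can overstate what the tests find. Only this size of change was simulated, so the share of smaller changes that would be missed is not known.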

Additional observations from a re-analysis of the deposited data

How the results depend on the processing

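The rise of *Sesn2* kept its direction under every alternative run, from 2.33 to 2.73 without 1 library at 0.5 Gy, 2.13 to 2.81 at 0.2 Gy and 2.34 to 2.68 at both doses. Of the 8 genes, 1 was called at 2.5 h, 4 h and 6 h against 0 h with no filter and with DESeq2, and 1 at 0.2 Gy with DESeq2, in each case *Sesn2*, where edgeR called 0. With limma 0 were called at 0.5 Gy and at both doses, and without 1 library 0 to 1 were called at 0.5 Gy. The number of genes called moved more. In the order 1, 2.5, 4 and 6 h against 0 h it was 0 throughout, and 30, 56, 80 and 78 with no filter, 20, 85, 125 and 137 with DESeq2, and 0 to 4, 0 to 7, 0 to 10 and 0 to 6 without 1 library. At 0.5 Gy the 29 genes became 58 with no filter, 202 with DESeq2, 8 with limma and 10 to 37 without 1 library. At 0.2 Gy the 13 became 32, 147, 68 and 1 to 18 in the same order, and for the difference between doses the 9 became 22, 129, 38 and 0 to 13. At both doses the 38 became 181 with DESeq2, 14 with limma, 22 to 42 without 1 library and 15 without both 0 h libraries of 0.5 Gy, a choice made after seeing the data. The cause was not tested.

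For the duplicates of 0, 1 and 4 h the replicate numbers share the generation in the labels. The single libraries of 2.5 h and 6 h at 0.5 Gy are of the second generation, so early and late are not balanced for generation at that dose. The deviations of same-numbered libraries correlated at 0.164 (0 and 1 h), 0.0971 (0 and 4 h) and 0.139 (1 and 4 h) over 22588 genes, so not every pair was over 0.1 and the pairing was not used. With generation as a block, 1, 6 and 7 genes were called at 2.5, 4 and 6 h against 0 h and 18 at 0.5 Gy. *Sesn2* was at 2.22 (adjusted p = 0.0486, edgeR) at 0.5 Gy and 2.34 (adjusted p = 0.00404) at both doses, and with crossed numbers, run because the study's sequencing summary and the labels differ on the generation of the 1 h and 4 h libraries, at 2.52 (adjusted p = 0.0422) and 2.50 (adjusted p = 0.00635).

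The signs of several differences turned between fits, that of *Gls2* at 0.2 Gy among them, which was 0.40 with edgeR. *Tigar* was at 0.037 at 0.5 Gy and 0.030 at both doses with the crossed block, and ranged without 1 library from -0.21 to 0.062, from -0.20 to 0.11 at 0.2 Gy and from -0.094 to 0.057 at both doses. With limma at 0.2 Gy *Sesn1* was at -0.15 and *Gls2* at -0.34, and the *Sesn2* difference between doses was 0.16. The limma value of *Sesn1* rests on TPM summed over all transcripts, at 0.2 Gy 38.3 and 60.6 early and 45.2 and 41.7 at 4 and 6 h. On protein-coding transcripts alone these were 9.11 and 8.40 early and 11.8 and 8.26 at 4 and 6 h. Without 1 library, *Sco2* ranged from -0.54 to 0.019 at 0.5 Gy, and at 0.2 Gy *Sesn3* from -0.067 to 0.39, *Prkab1* from -0.055 to 0.30 and *Gls2* from -1.004 to 1.10. The *Sesn2* difference between doses ranged from -0.34 to 0.37. At 6 to 78 reads for *Gls2* and 17 to 105 for *Sco2*, depth limits what these genes can show, and single libraries at 2.5 and 6 h leave those times without a replicate.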

Other observations

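The TPM of *Sesn1* summed over all its transcripts ranged from 8.92 to 60.6 over the 13 libraries, a wider range than its 54.3 to 111 CPM. Of that sum a median of 73.9%, and up to 86.1%, came from a processed transcript of 90 bases that took at most 0.90% of the estimated reads of the gene. The levels of *Sesn1* per length given above rest on its protein-coding transcripts for this reason.

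*Tsc2*, a subunit of the complex that restrains mTORC1, differed between the duplicates of 0 h at 0.5 Gy, with 786 and 353 CPM. It was at 184 CPM at 0 h of 0.2 Gy, and at 6 h it was at 404 CPM at 0.5 Gy and 716 CPM at 0.2 Gy. The log2 difference late against early was -0.42 at 0.5 Gy and 1.63 at 0.2 Gy (SE 0.43, adjusted p = 0.444 with edgeR), and DESeq2 called the latter. The difference between the doses was -1.90 (SE 0.53, adjusted p = 0.502, edgeR).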
